A study of Rattus norvegicus with 24 samples.

Results

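Troponin is the calcium switch of the thin filament in striated muscle. Its subunit T anchors the complex to tropomyosin, subunit I holds the filament in the off state and subunit C binds calcium. Subunits T and I are each made in slow skeletal, fast skeletal and cardiac forms from separate genes. Troponin genes are classically muscle genes, and their transcripts can also be counted in brain RNA. The rule named 4 troponin genes for the rat hippocampus, namely Tnnt1 (slow skeletal troponin T), Tnni3 (cardiac troponin I), Tnnt3 (fast skeletal troponin T) and Tnni2 (fast skeletal troponin I). The count table carries Ensembl identifiers alone, and only Tnnt1 (ENSRNOG00000028041) could be paired with one, so 1 of the 4 genes, out of 32883 annotated genes in all, is described here and the other 3 were not analysed here. Tnnt1 was chosen by its measured fold change between the lines in an earlier look at these same rats, so its lineage difference is given as a description with no test.

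The rats were bred High Responders (bHR) and bred Low Responders (bLR), lines selected for high or low locomotion in an unfamiliar arena, taken as the F0 animals of a cross after 37 generations of selection. RNA was read from whole hippocampus of 24 behaviorally tested adults, 6 of each line and sex. By the family codes of the labels, each of 12 families (6 in each line) supplied a male and a female. The study's text instead describes a separate family for every rat, a conflict that could not be settled, so family here means the labelled code and whether rats that share a code are related was not tested. By the labels males were 151 to 165 days old and females 187 to 192 days old, and by the study the sexes were dissected on separate days, so sex, age and day cannot be told apart. The study's text gives younger ages than the labels do. The lines were selected for the behavior, so line and genetic background coincide. The bHR female of family H05 had a RIN, a score of RNA integrity, of 6.3, against 8.7 or more in the other 23 rats, and was left out of the fits. The libraries held 16824899 to 28443049 counted reads. Counts were scaled to the library total as CPM (counts for every 1000000 reads counted), and the 13838 genes at 1 CPM or above in 6 or more of the 23 rats were tested.

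Tnnt1 lies on chromosome 1 of Rnor6, plus strand, from 72889270 to 72899659, and is annotated as protein coding. Counts are of the whole gene, so exons and isoforms were not separated. In the RefSeq annotation of the GRCr8 build, the stretch before its start site holds a TATA-like motif and a close pair of E-boxes, the class of motif bound by basic helix-loop-helix factors, and these are shown to give the sequence context of its start. Both are on the plus strand of chromosome 1 (GRCr8), at chr1:78348993-78349021 and chr1:78348864-78348892, with the motifs TATAA and CANNTG in capitals.
TATA window: ccagcatctagcTATAAacctagggggtg
E-box window: tcttgaagCAGATGaCAGGTGttggaccc
The first base of TATAA stands 30 bases before the start site, and the E-boxes begin 163 and 156 bases before it. Both strands were searched, and CANNTG reads the same on either. The Tnnt1 promoter held a further CANNTG at base 25 past the start. Of 33469 promoters of 300 bases, 26.2% held TATAA and 72.1% held CANNTG, while the share with a close pair was not counted. The letters GGGCGG, also searched, were found in 33.1% of promoters, and in that of Tnnt1 they began 51 bases before the start site. The letters CATTCC, the core of a motif of muscle genes, were found in 14.2% of promoters and not in that of Tnnt1.

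Tnnt1 was read in every rat, well above the limit of detection. It had 36 to 87 counts in the 11 bHR rats kept and 50 to 481 counts in the 12 bLR rats, while 3 counts stood for 0.105 to 0.178 CPM depending on the library. Its mean of 6.74 CPM was exceeded by 67.2% of the genes tested, so it was a low-abundance transcript. CPM is not scaled by gene length, so it serves to compare rats.

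In bHR rats Tnnt1 was low. The 5 bHR females kept had 1.56 CPM (family H02), 1.78 CPM (H11), 2.26 CPM (H04), 2.65 CPM (H08) and 3.38 CPM (H12). The 6 bHR males had 2.15 CPM (H02), 2.48 CPM (H05), 2.53 CPM (H04 and H12 alike), 2.74 CPM (H08) and 3.30 CPM (H11). The highest bHR rat was thus 2.16 times the lowest, or 3.79 times with libraries scaled by TMM (trimmed mean of M-values) instead of plain totals, and males and females overlapped. In bLR rats the level was higher in most rats and ranged more widely. The 6 bLR females had 2.38 CPM (L03), 3.28 CPM (L07), 8.85 CPM (L10), 8.97 CPM (L01), 12.6 CPM (L06) and 17.6 CPM (L09). The 6 bLR males had 2.49 CPM (L10), 3.67 CPM (L07), 8.54 CPM (L06), 13.7 CPM (L01), 21.6 CPM (L09) and 24.1 CPM (L03). The highest bLR rat was 10.1 times the lowest, or 13.9 times with TMM.

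**Figure D1:**
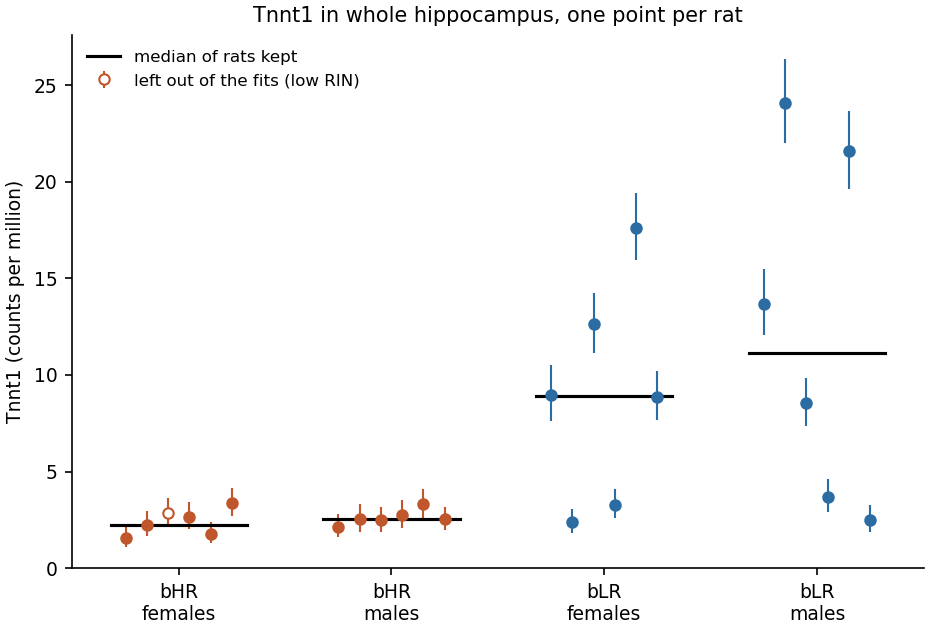
Tnnt1 in CPM for each rat, by line and sex, with 95% Poisson intervals that cover counting error only, black lines at the medians, and an open point for the bHR female left out. All bHR points lie at or under 3.38, while the bLR points spread from 2.38 to 24.1.

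The lines overlapped at the lower end. Of the 12 bLR rats, 9 were above the highest bHR rat and 3 were within the bHR range. A pattern of at least 9 of 12 bLR rats above every bHR rat was found in 37 of the 13838 genes tested (0.267%), and since the lineage difference chose the gene, nothing is read from that share. The bLR rats did not form an even series, with 4 at 3.67 CPM or less, 8 at 8.54 CPM or more and none between. With TMM the same number of 9 bLR rats lay above all bHR rats, but the widest gap on a log scale ran from 3.15 to 5.34 CPM with 3 bLR rats below it, so the place of the gap depended on the scaling.

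The mean was 2.49 ± 0.553 CPM in bHR rats (SD, n = 11) and 10.7 ± 7.45 CPM in bLR rats (SD, n = 12), a ratio of 4.28, and the ratio of the medians (2.53 and 8.91 CPM) was 3.52. Adjusted for sex, %rRNA and %intergenic in edgeR, the log2 fold change (Log2FC, bLR vs. bHR) was 2.06 (SE 0.39), or 4.17-fold. This model called 185 of 13838 genes for lineage at FDR < 0.10 (1.34%), 107 of them higher in bLR (0.773%). The direction was the same in each sex fitted alone, with %rRNA but not %intergenic as a term. The Log2FC was 2.14 (SE 0.41) for the males and 1.73 (SE 0.45) for the females. Among males, 5 of 6 bLR rats exceeded every bHR male, and among females 4 of 6 bLR rats did so, with ratios of the means of 4.71 and 3.85. Leaving out any 1 rat gave a Log2FC from 1.77 to 2.24, and the lowest value came without the bLR male of family L09. In bulk tissue a lower count cannot be told apart as fewer cells expressing the gene or less RNA in each.

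**Figure D2:**
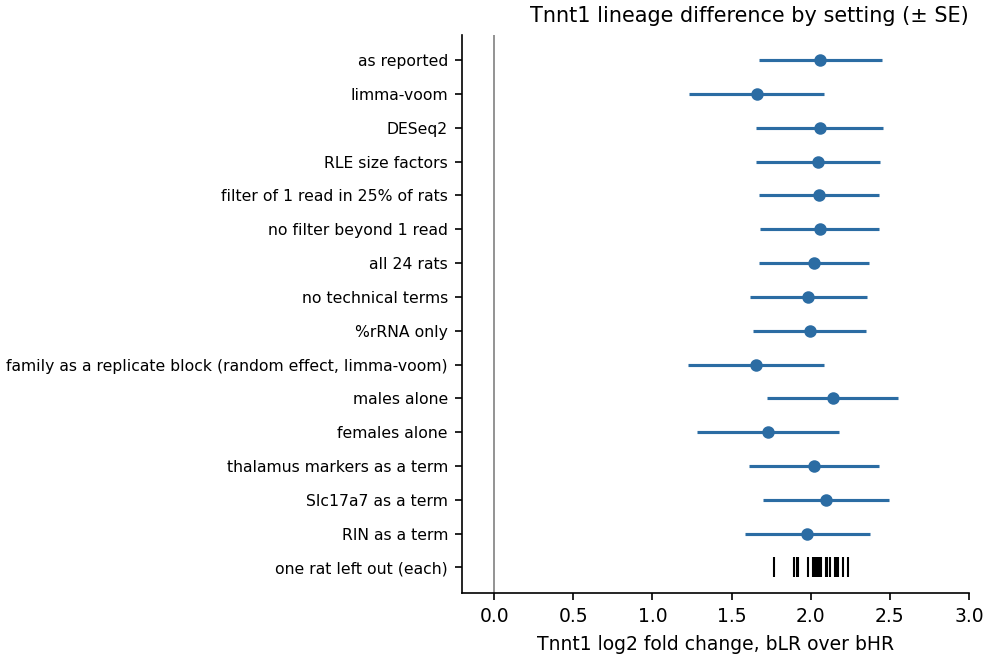
Tnnt1 Log2FC (bLR over bHR) with its SE for the reported model, for each other setting tried, and for the 23 fits that each leave out 1 rat (black ticks, values only). Every value lies above 0, between 1.66 and 2.24.

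Tnnt1 varied more among bLR rats than among bHR rats, and the size of that contrast depended on the scaling. On log2 CPM with TMM, the scale used from here on for log2 values, the SD around the mean of each line and sex was 1.20 in bLR rats and 0.60 in bHR rats, a ratio of 1.99. The median over all genes tested was 0.45 in bLR, 0.49 in bHR and 0.936 for the ratio, so that in bHR rats Tnnt1 was also above the median, and 333 of the 13838 genes (2.41%) had as large a ratio or larger. On plain library totals the SD was 1.23 in bLR and 0.32 in bHR, a ratio of 3.83, with all-gene medians of 0.50, 0.57 and 0.917, so that in bHR rats Tnnt1 was then below the median, and 8 of the 13838 genes (0.0578%) had as large a ratio or larger. These are descriptions, and the difference in spread was not tested.

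Sex was not found to shift Tnnt1. The Log2FC of female vs. male was -0.39 (SE 0.34), with an adjusted p of 0.673 by edgeR's quasi-likelihood test, in a comparison that called 49 of 13838 genes (0.354%), or 19 with family as a replicate block. The red cell markers Hbb and Alas2 were lower in females in that comparison, with a Log2FC of -2.02 for both (adjusted p = 0.00273 and 0.000412 by edgeR), and their part in the sex value of Tnnt1 was not tested. Within bLR the mean log2 CPM was 0.53 lower in females than in males (2.76 and 3.29, exact permutation test, two-sided, p = 0.450), and within bHR it was 0.28 lower (1.20 and 1.48, exact permutation test, two-sided, p = 0.455), with Benjamini-Hochberg adjusted values of 0.455 for both tests. The interaction of lineage and sex, which asks whether the line difference itself differs between the sexes, was -0.41 (SE 0.71), with an adjusted p of 1.00 by edgeR's quasi-likelihood test. That test called 0 of 13838 genes (0.0%), with 325 genes at an unadjusted p below 0.05, and limma-voom and DESeq2 also called 0. The number at an unadjusted p below 0.05 moved widely with the model, from 104 with no technical terms to 1143 with %intergenic added. The SE leaves room for a sizeable interaction in either direction.

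The male and the female of a family were not found to resemble each other in Tnnt1 beyond their line. Both rats were low in family L07 (3.28 and 3.67 CPM in the female and the male), and both were high in L01, L06 and L09, where the higher rat was 1.52, 1.48 and 1.23 times the lower. In family L03 the male had 24.1 CPM, the highest level of all, and the female 2.38 CPM, the lowest of the bLR line. In family L10 the order was the other way, with 8.85 CPM in the female and 2.49 CPM in the male. After the mean of each line and sex was subtracted from log2 CPM, males and females of the 11 families with both rats kept had a Pearson's r of -0.0025 (exact permutation of females among families of their own line, two-sided, p = 0.995) and a Spearman's rho of 0.15 (exact permutation, two-sided, p = 0.682). Without the 2 families whose males were farthest from the median, r was -0.18. Leaving out each family gave r from -0.32 (without L09) to 0.35 (without L03), so 11 families set the value loosely.

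**Figure D3:**
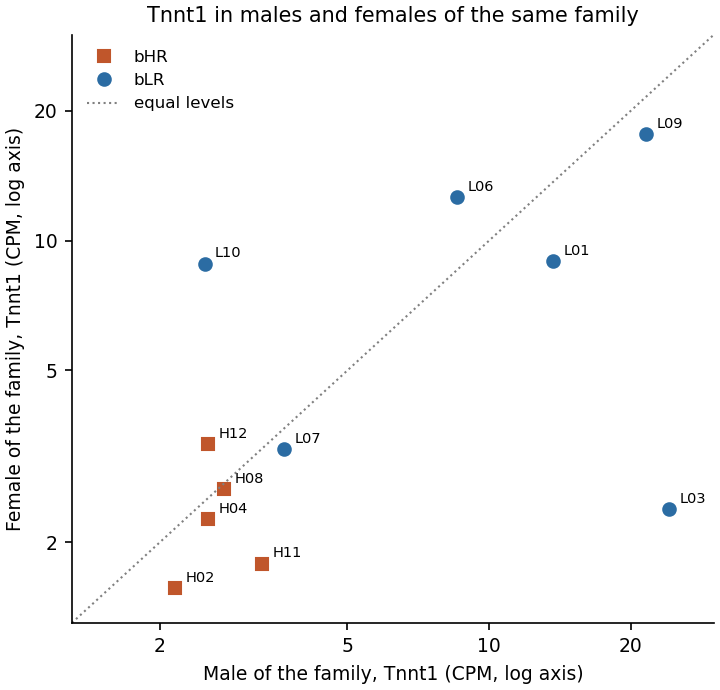
Tnnt1 in the male against the female of each of the 11 families with both rats kept, in CPM on log axes, with the dotted line marking equal levels. The bLR families L07, L01, L06 and L09 lie near the line, while L03 and L10 lie far from it on opposite sides.

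Tnnt1 was next set against the behavior of each rat within each line, since the lines differ in behavior by design. The measures were the total LocoScore (movements in an unfamiliar arena, 1533 to 2949 in bHR and 23 to 101 in bLR as labelled), and, on the elevated plus maze, distance traveled, time immobile and percent time in the open arms. Lateral and rearing scores did not add up to the total given for 5 of the 24 rats, among them the bLR male of L09 (101 against 66). None of the 8 relations passed the correction for 8 tests, with adjusted p from 0.223 to 0.962 (Benjamini-Hochberg over permutation tests), and with the sex means subtracted the lowest adjusted p was 0.156. That second outcome depended on the scaling: on plain library totals distance, time immobile and open-arm time in bHR rats, with the sex means subtracted, had r of -0.63, 0.74 and 0.75 and an adjusted permutation p of 0.0988 each, under the threshold of 0.10, while without that subtraction the lowest adjusted p on plain totals was 0.354. The smallest unadjusted p was that of time immobile in the 11 bHR rats (r = 0.66, permutation p = 0.0279, adjusted 0.223, rho = 0.68, permutation p = 0.0246), and leaving out the pair of rats farthest from the median gave r = 0.54, while subtracting the sex means gave 0.78. The same relation in the 12 bLR rats had an r of -0.056 (permutation p = 0.864, rho = -0.070, permutation p = 0.834), or -0.57 when the 2 farthest rats were dropped. For the LocoScore r was -0.48 in bHR (permutation p = 0.132, rho = -0.44, permutation p = 0.183) and 0.39 in bLR (permutation p = 0.209, rho = 0.29, permutation p = 0.364). Dropping the 2 farthest rats took these to -0.085 and -0.15, and scores summed from their parts gave -0.52 and 0.27. For open-arm time r was 0.44 in bHR (permutation p = 0.176, rho = 0.25, permutation p = 0.450) and -0.47 in bLR (permutation p = 0.120, rho = -0.38, permutation p = 0.220). With the sex means subtracted these became 0.73 (permutation p = 0.0396, adjusted 0.156) and -0.56 (permutation p = 0.0650, adjusted 0.156), and with the 2 farthest rats dropped 0.056 and -0.42. For distance r was -0.23 in bHR (permutation p = 0.493, rho = -0.20, permutation p = 0.558) and 0.016 in bLR (permutation p = 0.962, rho = -0.24, permutation p = 0.445), or -0.56 and -0.077 with the sex means subtracted and 0.19 and 0.040 with the 2 farthest rats dropped. The difference between the lines in these relations was not tested.

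RIN was lower on average in bLR rats and %intergenic higher, differences that were not tested. RIN was 9.59 ± 0.164 in bHR rats (SD, n = 11) and 9.33 ± 0.365 in bLR rats (SD, n = 12), and %intergenic was 9.83 ± 1.35 and 10.7 ± 1.09. The 4 rats with a RIN under that of every bHR rat kept were bLR rats with 8.85 to 24.1 CPM of Tnnt1. The other 8 bLR rats had 2.38 to 21.6 CPM (median 6.11), and 5 of them were above the highest bHR rat. With RIN as a further term the lineage Log2FC of Tnnt1 was 1.98 (SE 0.39).

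Within line and sex, Tnnt1 was not found to follow the RNA metrics, in a comparison that by its construction says nothing of the line difference. With the mean of each line and sex subtracted, r with RIN, %rRNA, %intergenic, RNA concentration and library size ran from -0.20 to 0.23, with rho from -0.32 to 0.34 and adjusted permutation p from 0.757 to 0.969 over the 5 relations. Within the lines the values parted, with r of 0.73 for RIN, 0.81 for %rRNA and -0.77 for RNA concentration in bHR rats against -0.32, 0.020 and 0.085 in bLR rats. With all 24 rats, which adds the bHR female of low RIN, the bHR values were -0.063, 0.78 and -0.78, so the sign for RIN rested on leaving that rat out. The part of these metrics in the levels of Tnnt1 was not tested.

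The genes measured beside Tnnt1 on the chromosome had smaller lineage differences than its own. Since Tnnt1 was chosen by its lineage difference, nothing is read from that contrast. Among genes with a position in the table used here, the 10 tested on each side reached 268 kb to the left and 4212 kb to the right, and 0 of these 20 were called for lineage by edgeR (1 had an unadjusted p below 0.05, the lowest adjusted p being 0.133). Since 1.34% of all genes tested were called, so few among 20 is no result about the neighbors. Other genes in this interval may carry no position in that table, so these are not all neighbors. The Log2FC of the 20 ran from -0.32 to 0.81 with a median of 0.041, against -0.0035 over all genes tested, and 14 were higher in bLR.

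Dnaaf3, an assembly factor for the dynein arms of motile cilia, ends 6.27 kb before Tnnt1 on the same strand and was the neighbor with the highest Log2FC, 0.81 (SE 0.24, adjusted p = 0.133 by edgeR's quasi-likelihood test). It had 0.228 to 1.28 CPM (median 0.417) in bHR rats and 0.298 to 3.26 CPM (median 0.878) in bLR rats, so the lines overlapped. Within line and sex its r with Tnnt1 was -0.12. Ppp1r12c, a regulatory subunit of myosin phosphatase, begins 3.60 kb after Tnnt1 and had a Log2FC of 0.014 (SE 0.085, adjusted p = 0.979 by edgeR). It had 54.3 ± 23.1 CPM in bHR rats (SD, n = 11) and 57.9 ± 20.7 CPM in bLR rats (SD, n = 12). Syt5, a synaptotagmin, had a Log2FC of 0.15 (SE 0.13, adjusted p = 0.769 by edgeR). Over all 20 neighbors r with Tnnt1 ran from -0.34 to 0.48, and the SD ratio of bLR over bHR ran from 0.450 to 1.81, under the 1.99 of Tnnt1.

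**Figure D4:**
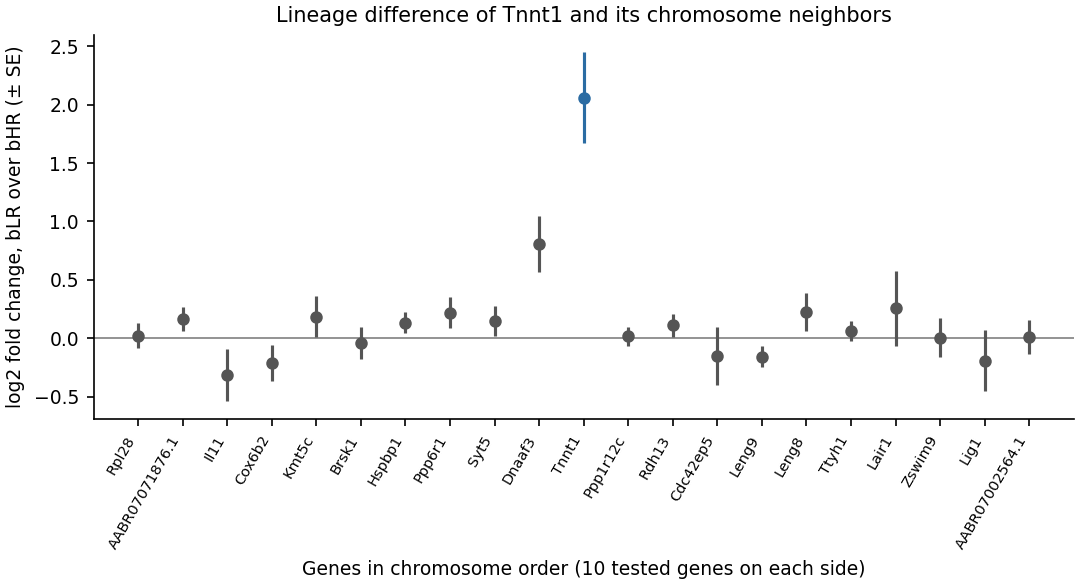
Log2FC of bLR over bHR with its SE for Tnnt1 (blue) and the 10 tested genes on each side in chromosome order (gray). Tnnt1 stands at 2.06, Dnaaf3, the nearest gene on its left among those tested that had a position, at 0.81, and the other genes between -0.32 and 0.26. Genes without a position are not shown.

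The list held 56 genes, for the thin filament and its regulation, for other sarcomere and muscle proteins such as myosins, and for calcium handling of muscle. Only 4 could be paired with an identifier, and all 4 passed the filter on low values. Besides Tnnt1 these were Mylpf (the fast skeletal regulatory light chain of myosin), Ryr1 (the skeletal calcium release channel) and Atp2a1 (the fast skeletal calcium pump). In this comparison, where 1.34% of all genes were called, 0 of these 3 were called for lineage and 0 for sex (0.354% of all genes), which is no result for so few, and their median lineage Log2FC was 0.23. Mylpf had 1.13 to 26.0 CPM in bHR rats (median 2.75) and 1.07 to 5.11 CPM in bLR rats (median 2.11), with a Log2FC of -0.44 (SE 0.20, adjusted p = 0.466 by edgeR). Its highest value, in the bHR female of family H08, was far from all others. Ryr1 had 0.388 to 1.92 CPM in bHR and 0.547 to 2.85 CPM in bLR, with a Log2FC of 0.23 (SE 0.23, adjusted p = 0.804 by edgeR). Atp2a1 had 0.334 to 1.74 CPM in bHR and 0.499 to 2.05 CPM in bLR, with a Log2FC of 0.28 (SE 0.20, adjusted p = 0.697 by edgeR). The ranges of the lines overlapped for all 3. The other 52 genes of the list, among them the remaining troponin and all tropomyosin genes, were not analysed here.

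Markers of other tissue that a hippocampal dissection could hold were read beside these values. Of 12 thalamus markers, 2 had an identifier: Tcf7l2, a transcription factor of the thalamus, and Slc17a6, a vesicular glutamate transporter. Their summed level was 6.40 to 23.6 CPM in bHR rats (median 12.2) and 5.39 to 22.7 CPM in bLR rats (median 13.5). Tcf7l2 alone had 1.58 to 5.44 CPM (median 2.48) in bHR rats and 1.29 to 10.4 CPM (median 5.41) in bLR rats, with a Log2FC of 0.28 in the model (adjusted p = 0.746 by edgeR). Slc17a6 had 3.43 to 21.6 CPM (median 9.51) in bHR rats and 3.33 to 18.1 CPM (median 8.63) in bLR rats, with a Log2FC of -0.37 (adjusted p = 0.466 by edgeR). Their r with Tnnt1 within line and sex was 0.21 and -0.48. With these markers as a further term, the Tnnt1 Log2FC was 2.02 (SE 0.41). Of 10 listed markers of hippocampal excitatory neurons, 1 had an identifier: Slc17a7, a vesicular glutamate transporter. Slc17a7 was present in every rat but ranged widely, at 116 to 1467 CPM, with a lineage Log2FC of 0.028 (adjusted p = 0.977 by edgeR). With Slc17a7 as a term the Tnnt1 Log2FC was 2.10 (SE 0.40). The markers of choroid plexus (Folr1), smooth muscle (Acta2), interneurons (Vip), oligodendrocytes (Mag) and red cells (Hbb and Alas2) had lineage Log2FCs from -0.23 (Alas2) to 0.39 (Acta2). Of the 12 list and marker genes other than Tnnt1, 0 were called for lineage, against 1.34% of all genes, which is no result for so few.

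The genes with the highest and lowest likeness to Tnnt1 came from 1934 genes with a symbol and a mean of at least 1 CPM, by Pearson's r of log2 CPM with the mean of each line and sex subtracted, over 23 rats. These points share library scaling and RNA quality, so the values are descriptive. Over all 13391 genes with a mean of at least 1 CPM, the highest r was 0.78, in a gene without a symbol. Among the 1934 genes with a symbol, the highest were Psd (0.66), LOC688778 (0.65), Best1 (0.59), Cst6 (0.59), Mrps12 (0.58), RGD1564606 (0.58), Trappc6a (0.57), Aldh3b1 (0.56), Rgs13 (0.56) and Fth1 (0.55). By r over all genes tested other than Tnnt1, Psd ranked 5 and Fth1 ranked 59. Fth1 encodes the heavy chain of ferritin, Best1 a chloride channel and Aldh3b1 an aldehyde dehydrogenase. The lowest were LOC682402 (-0.67), Relt (-0.57), L3mbtl3 (-0.57), Prkcb (-0.53), which encodes a protein kinase C, and Samd5 (-0.53). Of these 10 genes, 3 were called for lineage (1.34% of all genes tested were, and the share among the 1934 is not given here). RGD1564606 and Aldh3b1 were higher in bLR (Log2FC 0.96 and 0.62) and LOC688778 was lower (Log2FC -1.01). Only 3 of the 10 (Psd, LOC688778 and Trappc6a) were again among the 10 highest when residuals of the lineage model were used.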

How the data were processed

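The authors aligned paired-end, poly-A-selected reads with STAR 2.7.3a to Rnor6 and counted them per Ensembl gene with Subread 2.0.0, per the labels and methods. What they deposited were raw gene counts, with no scaling or filter. CPM, TMM factors and tests were computed from them here.

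Genes reaching 1 CPM in 25% or more of 23 rats were fitted with edgeR 4.0.16 in R 4.3.3 (quasi-likelihood, TMM, Benjamini-Hochberg, FDR < 0.10). Terms were sex, lineage, %intergenic and %rRNA, and for the interaction sex, lineage, their product and %rRNA. Log2 CPM used TMM and a prior count of 2, while levels in CPM used plain library totals. Relations across rats used 100000 permutations (scipy 1.17.1, numpy 2.4.6). Symbols and positions came from the study's supplementary tables, and 1972 of the 13838 genes tested had one. On simulated data for the lineage comparison, edgeR recovered 189 of 193 changed genes with 25 false calls, over 13681 genes. The changes were set to a Log2FC of 1 up or down, with no effect of %rRNA, %intergenic or family. Recovery in the real data, which hold these, is not gauged by it.

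The members, the lists and the rule for named genes were chosen with earlier results of these data known. Named are the members, the listed genes with an identifier, the neighbors described, the 10 highest and 5 lowest correlations among genes with a symbol, and the markers. Also tried were DESeq2 1.42.0, voom from limma 3.58.1, other scaling and filters, all 24 rats, other terms, family as a block, each sex alone and leaving out each rat. Pairing of males and females came from the family codes, and the consensus correlation within families over all genes was 0.0085. P-values measure the spread between rats. Both rats were kept in 11 of the 12 families, so nearly all rats share a family code with another. The main edgeR fits held no term for family. Columns left unassigned numbered 0.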

Additional observations from a re-analysis of the deposited data

Results flagged for a closer look

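A gap test (Dixon, 95%) was run on 6 genes in 4 groups of line and sex, 24 groups in all, and chance alone gives about 1 in 20. Tnnt1 itself had no rat set apart in any of its 4 groups. Mylpf reached 26.0 CPM in the bHR female of family H08, where the next bHR female had 3.53 CPM. Ryr1 reached 1.92 CPM in a bHR male (family H02), with the next such male at 0.961 CPM. Atp2a1 reached 2.05 CPM in the bLR female of family L06, with the next bLR female at 1.05 CPM.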

How the results depend on the processing

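The Tnnt1 lineage Log2FC stayed positive in every alternative run, from 1.66 (limma-voom, with or without family as a random effect) to 2.24, and leaving out each rat gave 1.77 to 2.24. The sex Log2FC stayed negative and uncalled in all, at -0.17 with family as a replicate block and -0.57 to -0.17 without each rat. The interaction stayed negative and uncalled, at -0.75 to -0.094 without each rat, with 0 genes called in each. Genes at an unadjusted interaction p below 0.05, 325 as reported, numbered 104 with no technical terms, 180 with all 24 rats, 645 with no filter beyond 1 read, 492 with a filter of 1 read in 25% of rats, 1143 with %intergenic added, and 170 (without the bHR male of H08) to 651 (without the bHR male of H02) when each rat was left out. The replicate block changed no call on Tnnt1. Counts of called genes moved more. For lineage DESeq2 called 329, all 24 rats 294, no technical terms 56, males alone 18, females alone 8, Slc17a7 as a term 417 and leaving out each rat 97 (without the bHR male of H02) to 436 (without the bHR female of H12). For sex DESeq2 called 157, no technical terms 13, %rRNA alone 18, the family replicate block 19, thalamus markers as a term 26, Slc17a7 as a term 828 and leaving out each rat 18 (without the bHR male of H05) to 159 (without the bLR male of L06), with a change of over 1.5 times for 13 of the 23 rats. The cause was not tested. The r between the sexes of a family, near 0, changed sign to 0.12 with model residuals and 0.055 on plain library totals, and spanned -0.32 to 0.35 without each family. The r with %intergenic became 0.041 with all 24 rats, and on plain totals those with %intergenic, %rRNA and RNA concentration became 0.12, -0.021 and 0.026. On plain totals with the sex means subtracted, the bHR relations with distance (-0.63), time immobile (0.74) and open-arm time (0.75) came under the threshold. With model residuals 3 of the 10 genes most like Tnnt1, among those with a symbol, were shared. The Slc17a7 and RIN terms, plain totals, summed LocoScores, the counts with thalamus markers as a term and the leaving out of families were chosen after seeing the data.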
